A study of Mus musculus with 6 samples.

Results

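The 59 genes described here encode the kinases, kinesins, kinetochore proteins and partner proteins that carry a cell through mitosis. They were taken by gene name, out of 37074 gene names on the array, from a list chosen with earlier results of these data known. Each was measured in LSK cells, the lineage marker-negative, Sca-1-positive and c-Kit-positive bone marrow fraction that holds haematopoietic stem cells and multipotent progenitors. The cells came from C57BL/6 mice at postnatal day 6 to 8. The 3 control arrays held RNA from *Atg5*w/w;VaviCre+ mice and the other 3 arrays held RNA labelled as *Atg5*f/f;VaviCre+, named *Atg5*f/f;*Vav* below, so both groups carried the Cre transgene and differed in whether *Atg5* was flanked by loxP sites. *Atg5* encodes a protein needed to build the autophagosome. *Vav*-driven Cre acts from fetal life on in the whole haematopoietic system, and the deletion is therefore not restricted to LSK cells. How many mice gave each RNA sample is not labelled, and p-values measure only the spread between these samples.

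Mitotic genes are transcribed late in the cell cycle. Their promoters are held silent in resting cells by the DREAM complex and are switched on in G2 phase by B-MYB and FOXM1, which act with the same MuvB core on a short element called the cell cycle genes homology region (CHR). Haematopoietic stem cells of the adult marrow are mostly quiescent, whereas those of the newborn cycle, and the progenitors within the LSK gate cycle more than the stem cells. A signal from sorted cells pools all of them, and more cells in mitosis and more RNA per mitotic cell cannot be told apart.

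All values below are log2 signals, that is the log2 intensity of a 60-base probe minus the 75th percentile of its array, and all changes are differences in this signal, *Atg5*f/f;*Vav*-labelled arrays minus control arrays. The only *Atg5* probe read 1.10, 0.93 and 1.06 on control arrays and 1.46, 1.51 and 1.74 on *Atg5*f/f;*Vav*-labelled arrays, which was higher in the latter (0.54 ± 0.12 SE, limma adjusted p = 0.0209). Whether that probe lies inside the loxP-flanked part was not determined here, so it gives no check of the labels, and the groups are named as labelled throughout. All 8 LSK marker genes on the list were tested in the same limma fit, with 1 higher and 1 lower. *Ly6a*, which encodes Sca-1, was higher (1.57 ± 0.15, 2.97-fold, adjusted p = 0.00629) and *Procr* was lower (-1.56 ± 0.40, adjusted p = 0.0273). The c-Kit gene *Kit* did not pass (-0.38 ± 0.13, adjusted p = 0.0563). Of 12 stem cell markers 7 fell and 0 rose, with a median change of -1.05, and their summed linear signal was 55.2 to 60.5 on control arrays and 23.6 to 38.0 on *Atg5*f/f;*Vav*-labelled arrays. Erythroid markers moved in both directions, with 5 of 11 higher and 4 lower. The 5 that rose were *Car1* (13.9-fold), *Gata1* (8.01-fold), *Klf1* (7.73-fold), *Tfrc* (4.42-fold) and *Epor* (4.23-fold), each without overlap between the groups and each by more than any mitotic gene described below. On these 5 genes *Atg5*f/f;*Vav*-labelled array 3 was the highest and array 1 the lowest. The 4 that fell were the haemoglobin genes *Hba-a1* and *Hbb-b1* with *Alas2* and *Slc4a1* (changes of -2.29 to -1.92). The summed signal of the list, most of it from *Hba-a1*, was 226.2 to 509.6 against 86.8 to 147.0. Of 10 stromal markers 2 were above background on no array and 7 were tested, of which 4 fell. Their summed signal was 3.29 to 31.6 in controls, where *Col1a1* and *Col1a2* were high on control arrays 2 and 3 (2.90 to 3.47) and not on control array 1 (-4.14 and -0.90), and 1.28 to 1.95 in the other group. The part of these cell type markers in the changes described below was not tested. All arrays lay on 1 slide, with the control arrays in the first slide row and the *Atg5*f/f;*Vav*-labelled arrays in the other, so the effect of the slide row cannot be told apart from that of the genotype.

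The mitotic genes were higher as a group in the *Atg5*f/f;*Vav*-labelled arrays. All 59 were well above background on all 6 arrays, 57 had a higher mean in the *Atg5*f/f;*Vav*-labelled arrays and 48 of them passed the test as higher (limma, Benjamini-Hochberg adjusted p under 0.05), while 0 passed as lower in the limma fit. Over all 20772 gene names tested, 18.7% passed as higher and 15.3% as lower. The median change of the 59 genes was 0.67, a fold of 1.59, with quartiles of 0.53 and 0.82 and a range from -0.29 to 1.17. The median over all names tested was -0.03, with quartiles of -0.39 and 0.32. The share of probes above background was 58.15, 57.57 and 58.14% on control arrays 1 to 3 and 54.78, 53.91 and 51.58% on *Atg5*f/f;*Vav*-labelled arrays 1 to 3. With the 75th percentile taken over probes above background on all 6 arrays, the median change of the 59 genes was 0.46 and 33 passed as higher. Of all names 2387 then passed as higher, against 3887 in the reported fit. For 55 of the 59 genes every *Atg5*f/f;*Vav*-labelled array lay above every control array, which held for 29.6% of all names tested. With 3 arrays a side the smallest 2-sided p of an exact permutation test of a single gene is 0.1, so no gene can pass such a test at the threshold.

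No call held without control array 1 or control array 2. Without control replicate 1 and without control replicate 2, 0 of the 59 genes passed in the limma fit, although 52 and 45 had an unadjusted p under 0.05 as higher and the median change was 0.69 and 0.57. In the same fits only 0.597% and 0.52% of all names tested passed as higher, so calls were lost over the whole array. Leaving out control replicates 2 and 3 together, the arrays with high *Col1a1* and *Col1a2* signal, gave a median change of 0.67. That fit left a single control array, so only the size of the change is given for it. In each of these fits 57 of the 59 genes stayed higher.

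**Figure D1:**
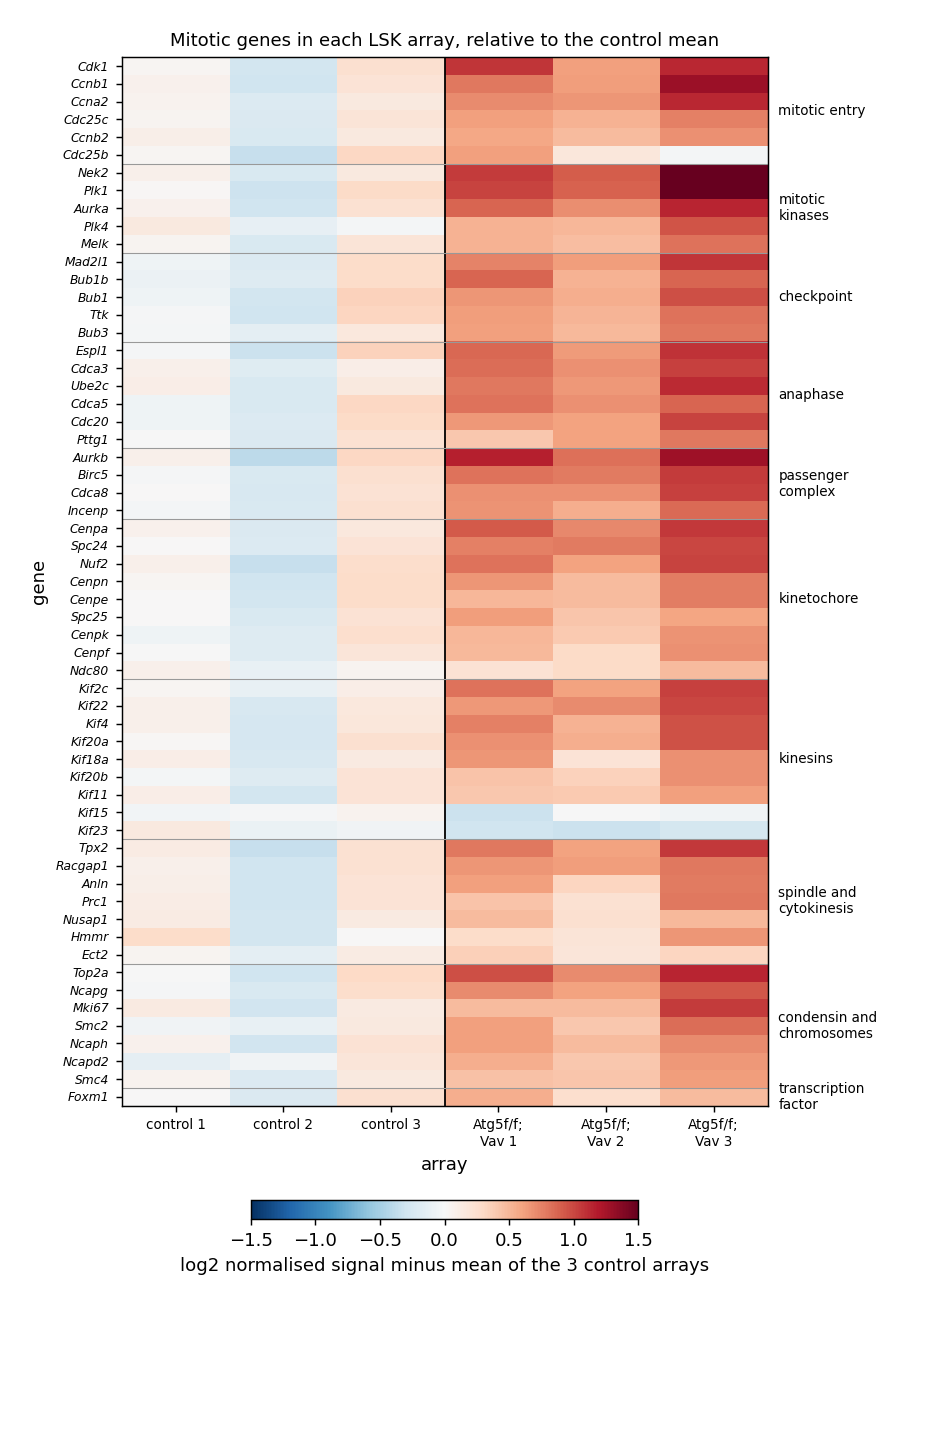
Log2 signal of each of the 59 mitotic genes (rows, grouped by role) on each of the 6 arrays (columns), as the difference from the mean of the 3 control arrays, on a colour scale from -1.5 (blue) to 1.5 (red). All 3 *Atg5*f/f;*Vav*-labelled arrays are red for nearly every gene, control array 2 is blue and control array 3 pale red, and Kif15 and Kif23 stand out as rows without red.

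The genes also moved together within each group. Control array 2 was the lowest control array for 57 of the 59 genes and control array 3 the highest for 55, against 40.7% and 43.0% of all names tested. Among the *Atg5*f/f;*Vav*-labelled arrays, array 2 was lowest for 53 genes and array 3 highest for 54, against 25.5% and 44.7% of all names. The median of the 59 genes relative to the control mean was 0.03, -0.23 and 0.21 on control arrays 1 to 3 and 0.65, 0.52 and 0.86 on *Atg5*f/f;*Vav*-labelled arrays 1 to 3. The *Atg5*f/f;*Vav*-labelled array with the smallest median was thus still above the control array with the largest, and the spread between arrays of a group was shared by the genes.

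The starters of mitosis were among the genes that rose, with 5 of 6 passing and a median change of 0.73. *Cdk1*, the kinase whose activation starts mitosis, read 0.19, -0.11 and 0.40 on control arrays and 1.23, 0.77 and 1.29 on *Atg5*f/f;*Vav*-labelled arrays, a change of 0.94 ± 0.19 (SE, adjusted p = 0.0179). *Ccnb1*, which encodes the cyclin B1 subunit that activates Cdk1, read 2.62, 2.25 and 2.76 against 3.34, 3.18 and 3.83 (0.91 ± 0.21, adjusted p = 0.0224). For both genes the lowest *Atg5*f/f;*Vav*-labelled array lay above the highest control array. *Ccna2* (0.83), *Cdc25c* (0.63) and *Ccnb2* (0.58) also rose. The phosphatase gene *Cdc25b*, whose product removes the inhibitory phosphates from Cdk1, was the exception. The probe that stands for it read -2.26, -2.63 and -1.98 on control arrays and -1.68, -2.12 and -2.32 on *Atg5*f/f;*Vav*-labelled arrays, so the groups overlapped (0.25 ± 0.22, adjusted p = 0.399). A further probe on its RefSeq transcript changed by -0.21 ± 0.26 (adjusted p = 0.541), so the sign depended on the probe.

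The promoters of these genes show the elements through which late cell cycle genes are known to be controlled. RefSeq promoters (GRCm38.p6, 250 bases before to 50 after the start) were at hand for 50 of the 59 genes, 46 with 1 promoter and 4 with several, 55 promoters in all. The genes without an entry are *Ccna2*, *Cdc25c*, *Aurkb*, *Incenp*, *Spc24*, *Kif20a*, *Tpx2*, *Smc4* and *Foxm1*. Both strands were searched for the CHR (TTTGAA or TTTAAA), the CCAAT box (CCAAT) and the E2F site (TTTCGCGC, TTTGGCGC, TTCGCGC or TTGGCGC, where the shorter forms lie within the longer). Shown are the 250 bases before the start of the mitotic entry genes that hold a CHR there, written 5′ to 3′ on the gene's strand with all 3 kinds of element in capitals. All lie on the minus strand, *Cdk1* at chr10:69352913-69353162, *Ccnb1* at chr13:100786487-100786736 and *Ccnb2* at chr9:70421555-70421804.
Cdk1: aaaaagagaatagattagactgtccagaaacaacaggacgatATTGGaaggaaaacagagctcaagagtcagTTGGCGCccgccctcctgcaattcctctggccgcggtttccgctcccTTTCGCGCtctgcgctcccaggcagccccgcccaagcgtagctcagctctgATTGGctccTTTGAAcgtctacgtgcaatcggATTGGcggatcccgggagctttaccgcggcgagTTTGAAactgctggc
Ccnb1: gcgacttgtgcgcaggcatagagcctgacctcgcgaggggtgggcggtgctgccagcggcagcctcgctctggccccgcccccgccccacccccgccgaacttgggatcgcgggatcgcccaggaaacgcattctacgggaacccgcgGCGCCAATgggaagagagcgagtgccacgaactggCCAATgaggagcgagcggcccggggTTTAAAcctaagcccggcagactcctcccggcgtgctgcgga
Ccnb2: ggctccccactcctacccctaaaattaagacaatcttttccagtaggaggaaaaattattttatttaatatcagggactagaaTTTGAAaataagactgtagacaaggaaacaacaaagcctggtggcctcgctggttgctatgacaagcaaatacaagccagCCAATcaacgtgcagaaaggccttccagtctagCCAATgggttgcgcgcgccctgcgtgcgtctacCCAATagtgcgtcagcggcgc
In *Cdk1* the last capitals, 9 bases before the start, are a CHR, and a further CHR lies 65 bases before it. Its 3 CCAAT boxes are read on the other strand, as ATTGG, and it holds 2 E2F sites. In *Ccnb1* the only CHR lies 36 bases before the start, downstream of 2 CCAAT boxes, and the E2F site, read on the other strand, shares bases with the first of them. *Ccnb2* has 3 CCAAT boxes within 82 bases of the start, with its CHR farther upstream at 161 bases, and a further CHR lies in the 50 bases after the start. The 300-base promoter of *Cdc25b* held a CCAAT box and no CHR match. That of *Nek2*, with a change of 1.17, also held no CHR match, while those of *Kif23* (-0.29) and *Kif15* (-0.12) each held a CHR. A link between these elements and the changes was not tested.

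Across the members, 42 of 55 promoters (76.4%) held a CHR, against 9062 of all 32851 promoters in the table (27.6%). A CCAAT box was present in 40 of 55 (72.7%) against 37.4%, an E2F site in 11 of 55 (20.0%) against 3.89%, and a CHR together with a CCAAT box in 34 of 55 (61.8%) against 10.7%. The 39 genes with a CHR in a promoter had a median change of 0.67 and the 11 without had 0.59. For the E2F site the medians were 0.56 with (10 genes) and 0.67 without (40 genes). With a CCAAT box the median was 0.69 (35 genes) and without it 0.59 (15 genes). These medians are descriptions and were not tested against each other. A match describes the letters in this window and is not a measured binding site.

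All 5 mitotic kinase genes rose, with a median change of 0.91. *Nek2*, a kinase that helps separate the centrosomes, read -1.49, -1.80 and -1.42 on control arrays and -0.52, -0.66 and -0.01 on *Atg5*f/f;*Vav*-labelled arrays, a change of 1.17 ± 0.20 or 2.25-fold (adjusted p = 0.0153, probe at chr1:193656343-193656402, mm9, plus strand). *Plk1*, the polo-like kinase that acts from mitotic entry to cytokinesis, read 2.86, 2.53 and 3.13 against 3.85, 3.73 and 4.44 (1.17 ± 0.23, 2.24-fold, adjusted p = 0.0172, probe at chr7:129313220-129313279, mm9, plus strand). These were the largest changes of the 59 genes, and neither gene's groups overlapped. *Aurka*, which builds the spindle poles, rose by 0.91 and *Plk4*, the kinase that starts centriole duplication, by 0.65. The smallest change of the group was that of *Melk*, at 0.51, 0.24 and 0.66 against 0.99, 0.93 and 1.29 (0.60 ± 0.16, adjusted p = 0.0302), still without overlap.

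The 5 spindle assembly checkpoint genes, whose products hold back anaphase until every chromosome is attached, all rose, with a median change of 0.72. *Mad2l1* read 2.08, 1.94 and 2.43 on control arrays and 2.89, 2.78 and 3.22 on *Atg5*f/f;*Vav*-labelled arrays (0.81 ± 0.18, adjusted p = 0.0197). *Bub1b*, which encodes BubR1, read -0.13, -0.23 and 0.23 against 0.83, 0.48 and 0.83 (0.76 ± 0.17, adjusted p = 0.0200). *Bub1* rose by 0.72 and *Ttk*, the gene of the Mps1 kinase at the top of the checkpoint, by 0.65. *Bub3*, the partner of both Bub1 and BubR1, had the smallest change, with 4.13, 4.01 and 4.32 against 4.78, 4.65 and 4.95 (0.64 ± 0.13, adjusted p = 0.0187). The groups did not overlap for any of the 5.

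All 6 genes listed under anaphase, with *Cdca3* among them, rose, with a median change of 0.82. *Espl1* encodes separase, the protease that cuts cohesin, and read 1.53, 1.23 and 1.89 on control arrays and 2.41, 2.19 and 2.63 on *Atg5*f/f;*Vav*-labelled arrays (0.86 ± 0.20, adjusted p = 0.0220). *Cdca3*, whose product promotes the destruction of the Wee1 kinase, read 2.32, 2.06 and 2.34 against 3.08, 2.93 and 3.27 (0.85 ± 0.14, adjusted p = 0.0149, the smallest of the 59 genes). *Ube2c* (0.85), the ubiquitin-conjugating enzyme of the anaphase-promoting complex, *Cdc20* (0.75), its activator, and *Cdca5* (0.78), or sororin, which protects cohesin, rose as well. *Pttg1*, the gene of securin that keeps separase inactive, changed least, from 3.49, 3.28 and 3.73 to 3.90, 4.10 and 4.29 (0.59 ± 0.16, adjusted p = 0.0321). Separase and its inhibitor thus rose together.

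All 4 subunits of the chromosomal passenger complex, which corrects faulty attachments and later directs cytokinesis, rose, with a median change of 0.84. The kinase subunit *Aurkb* read 0.05, -0.42 and 0.28 on control arrays and 1.14, 0.80 and 1.24 on *Atg5*f/f;*Vav*-labelled arrays (1.09 ± 0.21, 2.13-fold, adjusted p = 0.0167, probe at chr11:68864596-68864655, mm9, plus strand). *Birc5*, the gene of survivin, read 4.37, 4.16 and 4.63 against 5.21, 5.17 and 5.44 (0.89 ± 0.15, adjusted p = 0.0154). *Cdca8*, or borealin, rose by 0.79. The scaffold subunit *Incenp* had the smallest change, with 4.22, 4.02 and 4.49 against 4.92, 4.80 and 5.10 (0.70 ± 0.16, adjusted p = 0.0204). No control array reached a *Atg5*f/f;*Vav*-labelled array in any of the 4 genes.

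Of 9 centromere and kinetochore genes 8 rose, with a median change of 0.58. *Cenpa*, the histone H3 variant that marks the centromere, read 1.61, 1.33 and 1.71 on control arrays and 2.47, 2.27 and 2.61 on *Atg5*f/f;*Vav*-labelled arrays (0.90 ± 0.15, adjusted p = 0.0150). *Spc24* read 2.84, 2.62 and 3.04 against 3.58, 3.61 and 3.83 (0.84 ± 0.15, adjusted p = 0.0154). Spc24 is 1 of the 4 subunits of the NDC80 complex, which grips the microtubule ends, and the genes of that complex differed in size of change. *Nuf2* rose by 0.81 and *Spc25* by 0.54. *Ndc80* itself, which binds the microtubule, read -0.21, -0.40 and -0.25 against -0.07, 0 and 0.18. Its groups did not overlap but it did not pass (0.32 ± 0.12, adjusted p = 0.0731), and the difference between the subunits was not tested. The motor *Cenpe* and the proteins *Cenpf*, *Cenpk* and *Cenpn* rose by 0.58, 0.49, 0.52 and 0.63.

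Of 9 genes of the kinesins, the microtubule motors, 5 rose and 4 did not pass, with a median change of 0.51 and a range from -0.29 to 0.81. *Kif2c*, the depolymerase MCAK, read -1.75, -1.89 and -1.68 on control arrays and -0.97, -1.18 and -0.75 on *Atg5*f/f;*Vav*-labelled arrays (0.81 ± 0.14, adjusted p = 0.0156). *Kif22*, a motor that pushes chromosome arms to the spindle equator, read 2.92, 2.60 and 3.0 against 3.49, 3.55 and 3.84 (0.79 ± 0.16, adjusted p = 0.0172). *Kif4* (0.75), *Kif20a* (0.73) and *Kif20b* (0.49) also rose. *Kif11*, the Eg5 motor that pushes the spindle poles apart, was higher without overlap but missed the threshold, at 0.20, -0.18 and 0.30 against 0.51, 0.49 and 0.72 (0.46 ± 0.16, adjusted p = 0.0565). *Kif18a*, which damps chromosome movements, likewise read -1.67, -2.01 and -1.63 against -1.11, -1.56 and -1.09 (0.51 ± 0.18, adjusted p = 0.0610).

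*Kif23* went the other way. Its product, MKLP1, forms the centralspindlin complex of the midzone with the product of *Racgap1*. The probe that stands for it, at chr9:61774902-61774961 (mm9, minus strand), read 0.99, 0.74 and 0.79 on control arrays and 0.54, 0.52 and 0.58 on *Atg5*f/f;*Vav*-labelled arrays. All 3 *Atg5*f/f;*Vav*-labelled arrays were thus below all 3 control arrays, which held for this gene alone among the 59 (-0.29 ± 0.11, 95% interval -0.56 to -0.03, adjusted p = 0.0822). A further RefSeq transcript probe of *Kif23* read 0.60, 0.36 and 0.64 against 0.80, 0.32 and 0.32 (-0.05 ± 0.17, adjusted p = 0.827). The other 2 probes, designed on single cDNA clones, fell by 0.56 ± 0.16 and 0.66 ± 0.14 (adjusted p = 0.0386 and 0.0183). *Racgap1* in contrast read 1.16, 0.78 and 1.31 against 1.74, 1.71 and 1.87 (0.69 ± 0.16, adjusted p = 0.0220), while its further probes read 0.27 and 0.12 and did not pass. The pair was picked out after its values were seen, and the difference between its genes was not tested.

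For *Kif15*, a motor that helps keep the spindle bipolar, the probe that stands for the gene disagreed with its others. That probe, designed on a cDNA clone, read -0.45, -0.43 and -0.36 on control arrays and -0.73, -0.42 and -0.46 on *Atg5*f/f;*Vav*-labelled arrays, with overlap (-0.12 ± 0.12, adjusted p = 0.452). The 3 probes on its RefSeq transcript that were tested changed by 0.78 ± 0.14 (adjusted p = 0.0165), 0.40 ± 0.15 (adjusted p = 0.0775) and 0.33 ± 0.15 (adjusted p = 0.133). The sign of *Kif15* therefore depended on which probe stood for it.

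**Figure D2:**
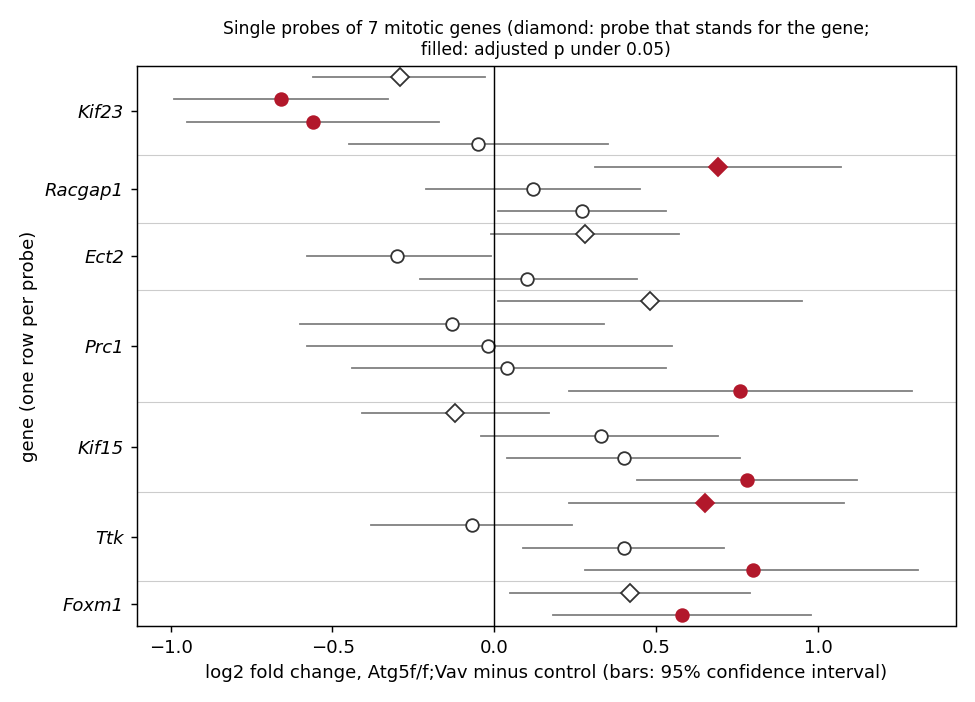
Change of every tested probe of 7 mitotic genes, as log2 fold change (horizontal axis) with its 95% confidence interval. Diamonds are the probes that stand for each gene, circles its further probes, and filled symbols passed the test. No Kif23 probe lies above 0, while Kif15, Prc1, Ect2 and Ttk have probes on both sides of it.

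Of 7 genes of the spindle and of cytokinesis only 3 passed, with a median change of 0.48. Besides *Racgap1*, *Tpx2*, the activator of Aurora A on the spindle, read 1.40, 0.93 and 1.51 on control arrays and 2.07, 1.88 and 2.34 on *Atg5*f/f;*Vav*-labelled arrays (0.82 ± 0.19, adjusted p = 0.0229), and *Anln*, the cleavage furrow protein anillin, rose by 0.58. *Ect2*, the exchange factor that centralspindlin recruits to switch on RhoA, had the smallest change, with 0.92, 0.73 and 1.0 against 1.24, 1.06 and 1.20 (0.28 ± 0.12, adjusted p = 0.110). *Prc1*, which bundles midzone microtubules, read 2.90, 2.49 and 2.99 against 3.22, 3.02 and 3.58 (0.48 ± 0.20, adjusted p = 0.0963). Neither *Ect2* nor *Prc1* had overlapping groups. The spindle protein gene *Nusap1* read 1.91, 1.51 and 1.93 against 2.27, 2.03 and 2.28, also without overlap (0.41 ± 0.15, adjusted p = 0.0783). The hyaluronan receptor and spindle gene *Hmmr* read 1.42, 0.88 and 1.15 against 1.42, 1.34 and 1.81, with overlap between the groups (0.37 ± 0.19, adjusted p = 0.156). In this group 4 of 7 genes thus did not pass, and the groups overlapped for *Hmmr* alone among them.

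All 7 genes of condensin and chromosome structure rose, with a median change of 0.62. *Top2a*, the topoisomerase that untangles sister chromatids, read 3.30, 3.01 and 3.61 on control arrays and 4.28, 4.02 and 4.45 on *Atg5*f/f;*Vav*-labelled arrays (0.94 ± 0.19, adjusted p = 0.0174). The condensin I subunit *Ncapg* read 2.14, 1.93 and 2.42 against 2.87, 2.76 and 3.09 (0.75 ± 0.16, adjusted p = 0.0192). Its partners *Ncaph* (0.59), *Ncapd2* (0.53) and *Smc2* (0.62) rose too, as did the proliferation marker *Mki67* (0.67). *Smc4*, the other condensin ATPase, changed least, from 2.52, 2.26 and 2.62 to 2.91, 2.89 and 3.1 (0.50 ± 0.14, adjusted p = 0.0316). The 5 condensin genes on the list thus lay between 0.50 and 0.75.

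*Foxm1*, the transcription factor that drives many of these genes in G2 phase, read 1.16, 0.94 and 1.40 on control arrays and 1.70, 1.41 and 1.64 on *Atg5*f/f;*Vav*-labelled arrays. The groups touched without overlapping, and the change of 0.42 ± 0.15 did not pass (adjusted p = 0.0736). A further probe of the gene changed by 0.58 ± 0.17 and passed (adjusted p = 0.0381).

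**Figure D3:**
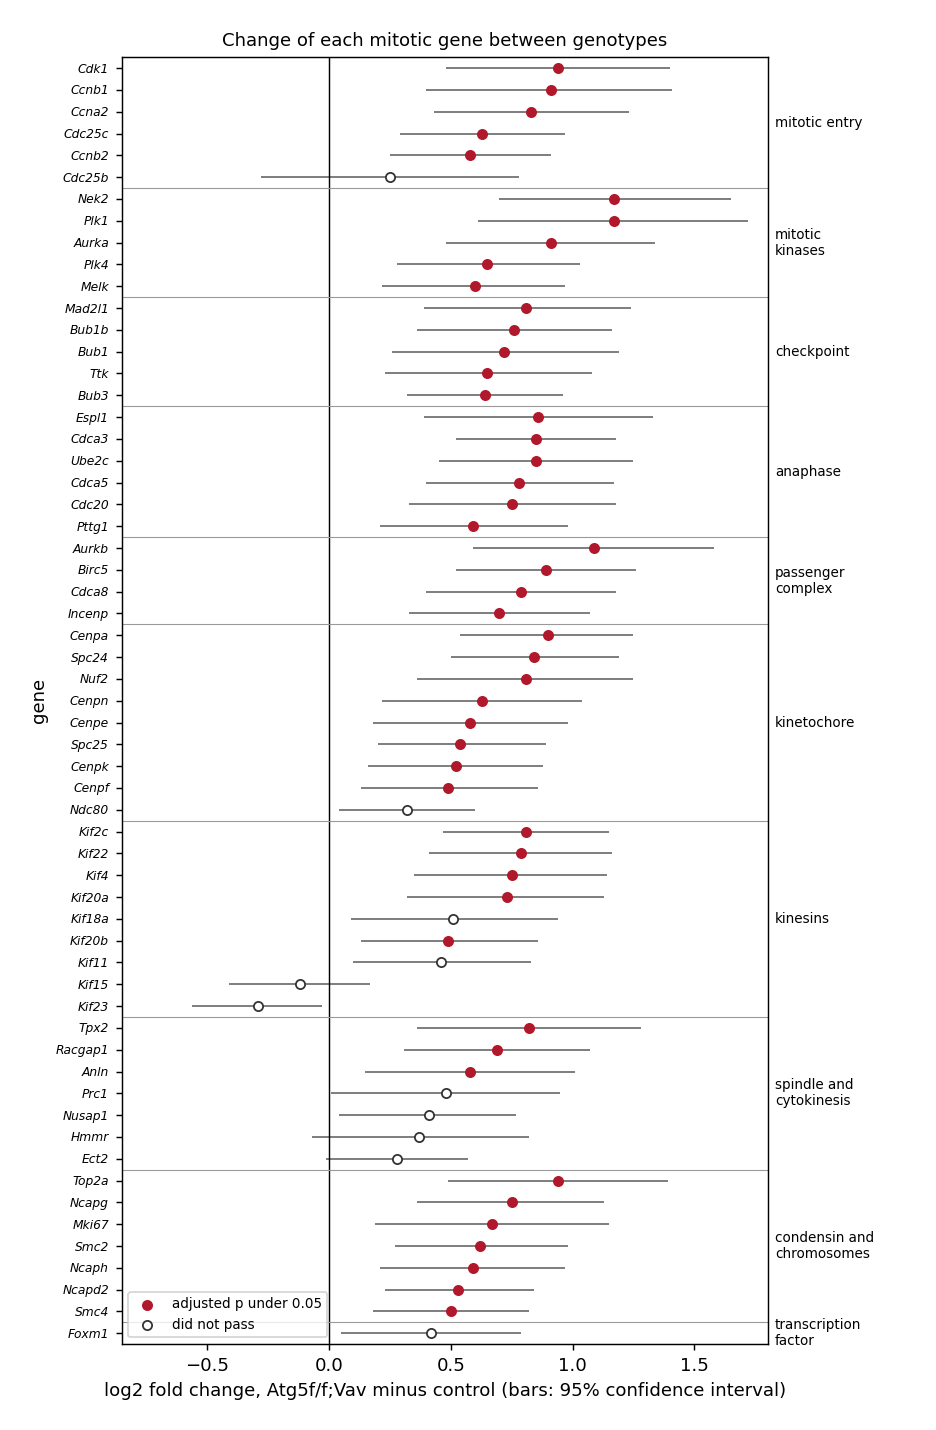
Log2 fold change of each of the 59 mitotic genes (horizontal axis), *Atg5*f/f;*Vav*-labelled minus control arrays, with its 95% confidence interval, by role. Filled points passed the test (48 genes) and open points did not (11 genes). Kinases and passenger complex genes sit to the right, and 8 of the 11 open points are kinesin or spindle and cytokinesis genes.

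The genes had 54 further tested probes. Of these 45 changed in the same direction as the probe that stands for the gene and 22 passed as higher, while 2 passed as lower, both of *Kif23*. The disagreements lay in part at probes designed on other transcripts. Some further probes on RefSeq transcripts also changed little and did not pass, such as those of *Kif2c* (0.25), *Cenpf* (0.12), *Cenpk* (0.18) and *Anln* (0.14). The further probe of *Ncapg*, on another transcript model, changed by 0.10 and did not pass. For *Prc1* a further probe on the RefSeq transcript rose by 0.76 (adjusted p = 0.0400), and 3 on other transcript models changed by 0.04, -0.02 and -0.13. For *Ttk* a probe on another transcript model changed by -0.07 (adjusted p = 0.691), and for *Ect2* one changed by -0.30 (adjusted p = 0.0954).

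The genes of other cell cycle steps were compared with these. Among 67 further mitotic genes 38 rose and 0 fell in the limma fit, where 64 were higher, with a median change of 0.51. *Mybl2*, the gene of B-MYB, read 2.49, 2.23 and 2.76 on control arrays and 3.31, 3.54 and 4.13 on *Atg5*f/f;*Vav*-labelled arrays (1.17 ± 0.24, adjusted p = 0.0180), and *Cenpu* rose by 1.04 (adjusted p = 0.0146). At the other end, *Cep55*, an abscission factor, changed by -0.11 (adjusted p = 0.567) and *Cdc27*, a subunit of the anaphase-promoting complex, by -0.05 (adjusted p = 0.768). Of 45 DNA replication genes 39 rose and 0 fell, with a median change of 0.55, led by *Mcm10* (1.07, adjusted p = 0.0206) and *Cdc45* (0.96, adjusted p = 0.0190), which open the origins. The replication gene *Pola2* changed by -0.13 (adjusted p = 0.424). S phase and mitotic genes were thus both higher, and the difference between their medians was not tested.

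Genes of G1 phase did not move as 1 group. Of 17 cyclins, kinases and E2F and Rb family genes 6 rose and 1 fell, with a median change of 0.28. *Ccne1*, the cyclin E1 gene that acts at S phase entry, read 1.62, 1.54 and 1.78 on control arrays and 2.40, 2.79 and 3.72 on *Atg5*f/f;*Vav*-labelled arrays (1.32 ± 0.32, adjusted p = 0.0239). *Cdk6* rose by 0.96 (adjusted p = 0.0179), and *Rbl2*, the p130 pocket protein of the DREAM complex, fell by 0.49 (adjusted p = 0.0439). Of 7 genes for inhibitors of the cyclin-dependent kinases 2 were above background on no array and 5 were tested. The median change of these 5 was -0.27, with 1 gene higher and 4 lower, of which 1 each way passed. *Cdkn1a*, the p21 gene, read -1.84, -1.40 and -0.95 against -0.15, -0.35 and -0.27 (1.14 ± 0.22, adjusted p = 0.0168). *Cdkn1c*, the p57 gene that is known for its level in quiescent stem cells, read 1.68, 1.70 and 1.59 against 0.90, 0.87 and -0.34 (-1.18 ± 0.33, adjusted p = 0.0335). These genes moved in opposite directions without overlap, and the other 3 inhibitor genes tested were lower and did not pass. A link of any of them to the level of the mitotic genes was not tested.

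**Figure D4:**
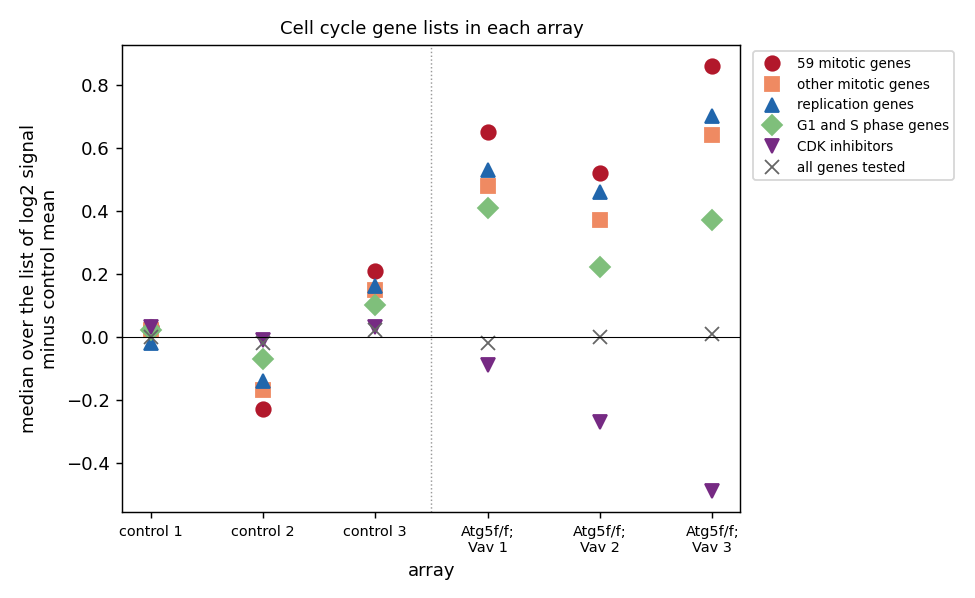
Median over each gene list of the log2 signal relative to the control mean (vertical axis) on each of the 6 arrays (horizontal axis). The 59 mitotic genes lie at -0.23 to 0.21 on control arrays and at 0.52 to 0.86 on *Atg5*f/f;*Vav*-labelled arrays, with replication genes and other mitotic genes below them in the latter and all genes tested near 0 throughout.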

How the data were processed

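LSK cells were sorted into TRIzol, and total RNA was labelled with Cy3 and hybridised to 1-colour Agilent arrays with 60-base probes placed on mm9. Per the labels, the authors processed the scans with Agilent Feature Extraction 12.0.3.1. The deposited intensity of each spot is background-corrected and not scaled between arrays. The deposited table of the authors holds the same signal divided by 1 constant per array (tested, spread at most 0.000267%).

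Log2 intensity minus each array's 75th percentile over 59305 non-control spots was tested with limma 3.58.1 (R 4.3.3, lmFit and eBayes, 2-sided) on 32065 probes that 3 or more of the 6 arrays flagged as well above background, with Benjamini-Hochberg adjustment over all of them and a threshold of 0.05. Outlier-flagged spots (64 to 81 per array) were dropped, and a probe so left without a value on an array was not tested. No spot was saturated. The number of arrays limits the precision. The tested probe with the highest mean signal stood for a gene. Groups followed the labels. Of these steps only the limma fit was tested on simulated log2 values with known changes.

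The members and lists were chosen with earlier results of these data known. Arrays were given in full for the 2 largest and the smallest change of each role, for members not passed or lower, and for *Foxm1*. At most 2 rises and 2 falls were named per other cell cycle list, a limit that did not apply to the cell type markers. Alternatives were background correction, scaling, filter, test, replicate block, probe choice and arrays left out. Cell type markers were described by counts, and the neutrophil and monocyte (5 higher, 5 lower of 12), lymphoid (1 higher of 11 tested) and megakaryocyte lists (2 higher, 3 lower of 6) beside those named above.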

Additional observations from a re-analysis of the deposited data

How the results depend on the processing

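The direction of the median change held in all settings, from 0.46 to 0.80, and 57 or 58 of the 59 genes stayed higher in each. The 75th percentile over probes above background on all 6 arrays moved the median of all names from -0.03 to -0.24 and the calls over all names from 3887 higher and 3188 lower to 2387 and 6027. It gave the median of 0.46, which is 0.70 above all names as in the reported fit, with 33 mitotic genes higher and 1 lower (*Kif23*, -0.50), 25 other mitotic genes and 22 replication genes higher. Quantile normalisation gave a median of 0.51, 33 mitotic genes and 19 replication genes higher, and 2893 of all names higher.

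Without the filter on dim probes, which tests more probes, 16 mitotic, 15 other mitotic and 11 replication genes passed as higher. Over all names 1569 passed as higher, against 3887 in the reported fit, so calls were lost over the whole array. The methods' t-test gave 51 mitotic genes higher and 1 lower unadjusted, against 5189 higher and 3608 lower over all names. After Benjamini-Hochberg adjustment it gave 0 in each of the 3 lists and 0 over all names. Averaging the probes of each gene called 1 gene lower (*Kif23*, -0.39) and gave *Kif15* a change of 0.35. An alternative chosen after seeing the data, a RefSeq transcript probe for each gene, gave *Kif15* 0.33. Leaving out 1 array at a time called 0 to 45 mitotic, 0 to 36 other mitotic and 0 to 38 replication genes higher. Over all names these fits called 108 to 3481 higher. Without control replicate 1 or 2 each of the 3 lists had 0 calls. There 40 and 36 other mitotic and 35 and 37 replication genes had an unadjusted limma p under 0.05 as higher. The cause of the losses without control replicate 1 or 2 was not tested. Leaving out control replicates 2 and 3 together, also chosen after seeing the data, gave a median change of 0.67.

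Whether the replicate numbers pair the arrays could not be decided from the correlations, which differed between replicates. Deviations of same-numbered arrays correlated at -0.095, 0.185 and 0.117 over the names tested. Control arrays 2 and 3 correlated best with the same-numbered array of the other group, and control array 1 with array 2 (0.149). For the mitotic genes, array 2 was lowest for 57 in controls and for 53 in the other group. Array 3 was highest for 55 and 54. With the replicate block 52 mitotic genes and 3726 of all names passed as higher.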
